A study of Mus musculus with 6 samples.

Results

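H3K9me3 was mapped in bone marrow endothelial progenitor cells (EPCs) of male mice (M-EPCs) and of ovariectomized female mice (OVX-EPCs), and the 2 groups were compared over the regions that lie on chromosomes 1 to 19. H3K9me3 is the trimethylated lysine 9 of histone H3. The table of these 2 groups held 57159 autosomal regions of 58493 in all, and 16616 of them were tested, those with a normalized value of at least 10 in at least 2 of the 4 libraries. Both groups were C57BL/6J mice aged 8 weeks, and the females had lost their ovaries at 35 days. Sca-1+/CD31+ cells were taken from bone marrow by magnetic sorting and grown in EGM-2, an endothelial growth medium that the study describes as free of estrogen. Each group had 2 CUT&Tag libraries. The groups differ in sex as well as in surgery and have no sham-operated female between them, so sex and ovariectomy cannot be told apart. The cells were set aside in duplicates, and nothing in the labels says that these came from separate animals, so the p-values given here measure only the spread between these libraries, which may be technical.

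H3K9me3 marks silent chromatin. SETDB1, SUV39H and related enzymes write it, HP1 proteins bind it, and it covers repeats, olfactory receptor clusters and zinc finger gene clusters in many cell types. In CUT&Tag an antibody brings the transposase Tn5 to the mark, where it cuts and tags the DNA, but Tn5 can tag open chromatin as well. Signal in a region is therefore a number of tagged fragments, and it is no measure of how much the nearby gene is expressed.

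The sequences of 3 regions that the results below turn on are shown first, because they differ in kind: a CG-rich coding exon, a stretch without CG in front of a predicted gene, and a tandem repeat beside an MHC class II gene. Each is the central 300 bases of the region, read from the mm10 (GRCm38) genome, with every CG dinucleotide, where most DNA methylation occurs, in capitals.
Mex3b, chr7:82869588-82869887, plus strand: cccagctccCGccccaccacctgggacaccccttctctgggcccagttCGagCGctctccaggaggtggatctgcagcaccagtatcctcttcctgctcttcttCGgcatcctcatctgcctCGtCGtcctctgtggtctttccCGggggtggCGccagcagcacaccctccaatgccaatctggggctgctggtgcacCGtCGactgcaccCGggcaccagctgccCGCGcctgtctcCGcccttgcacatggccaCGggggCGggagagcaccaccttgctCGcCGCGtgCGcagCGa
Gm38231, chr10:37128755-37129054, plus strand: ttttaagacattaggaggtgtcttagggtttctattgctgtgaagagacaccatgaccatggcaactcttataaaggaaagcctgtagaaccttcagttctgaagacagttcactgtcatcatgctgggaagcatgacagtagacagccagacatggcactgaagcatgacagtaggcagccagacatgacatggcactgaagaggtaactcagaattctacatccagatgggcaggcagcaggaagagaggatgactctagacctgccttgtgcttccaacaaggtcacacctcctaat
H2-Aa, chr17:34280700-34280999, plus strand: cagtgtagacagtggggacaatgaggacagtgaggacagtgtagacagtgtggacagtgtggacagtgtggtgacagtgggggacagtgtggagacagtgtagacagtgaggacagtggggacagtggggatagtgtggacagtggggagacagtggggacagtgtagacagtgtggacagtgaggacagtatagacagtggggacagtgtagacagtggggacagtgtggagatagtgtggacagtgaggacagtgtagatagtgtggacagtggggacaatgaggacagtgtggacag
The Mex3b stretch held 21 CG dinucleotides, and the other two held 0. The H2-Aa stretch repeats itself, with 223 of 291 bases (76.6%) identical to the base 9 positions before, against 39.5% at the best shift within the Mex3b stretch and 32.6% within that of Gm38231. Short reads are hard to place in such repeats, and how this touched the H2-Aa values was not tested.

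The libraries held 489207 to 566265 reads in autosomal regions. A region tested had a median of 13 to 16 reads per library, so single regions are measured coarsely. M-EPC replicate 1 stood apart in that 4.55% of autosomal regions held no read in it, against 1.57% to 2.59% in the others, and in its promoter share of reads, 32.6% against 27.6% to 29.3%. Reads from chromosome X made up 1.20% of each M-EPC library and 2.40% and 2.43% of the OVX-EPC libraries.

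H3K9me3 signal fell in OVX-EPCs at 67 autosomal regions, 0.403% of those tested, and rose at 0 (0%). The 67 regions were assigned to 57 genes on 17 chromosomes. Genes are named by the authors' assignment, and a named gene can lie far from its region. Their log2 fold changes, OVX-EPC over M-EPC, ran from -3.43 to -1.07 with a median of -1.78, a 3.44-fold lower signal, and 23 were below -2. The median standard error of these changes was 0.366, against 0.388 over all regions tested. Reads in these 67 regions numbered 2738 and 2762 in the M-EPC libraries and 759 and 847 in the OVX-EPC libraries. These values also chose the regions, so the totals are a description. Regions past an unadjusted p of 0.05 were more often lower (1865, 11.2%) than higher (716, 4.31%) in OVX-EPCs. The values of the 2 groups did not overlap at 47.5% of all regions tested, 31.5% lower and 16.0% higher. The median region changed by -0.17 (log2), and by -0.02 when scaling factors came from the regions tested alone, so changes of groups of regions are given below relative to this median. On that second scaling the counts were 34 lower and 5 higher, and at an unadjusted p under 0.05 there were 1126 lower and 1322 higher, the reverse order. With the trend over GC content removed those numbers were 1205 and 1165, so the excess of lower regions at the unadjusted threshold depends on the scaling.

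The test was limma, which let the variance follow the mean, on values transformed as log2(value + 1), with Benjamini-Hochberg adjustment over the whole table and a threshold of 0.05. With M-EPC replicate 1 or 2 left out, 11 and 10 regions differed, and with OVX-EPC replicate 2 left out, 195. DESeq2 called 10 regions, all lower, and edgeR called 115 lower and 7 higher. Of the 64 differing regions open to naming here, all 64 were also called by edgeR and 7 by DESeq2. All 64 stayed lower with any 1 library left out. This could not come out otherwise, since both M-EPC values exceeded both OVX-EPC values at each. Separation of the groups was also a condition for naming regions by p, so it adds no evidence below.

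**Figure D1:**
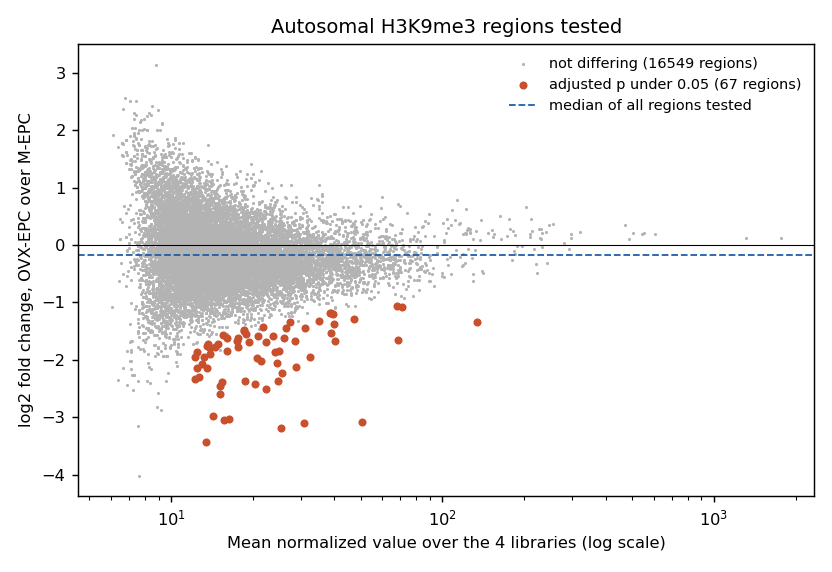
Log2 fold change (OVX-EPC over M-EPC) of the 16616 autosomal regions tested, 1 point a region, against the mean normalized value over the 4 libraries on a log axis. The 67 regions that differed (larger points) all lie below 0, between -3.43 and -1.07, and the dashed line is the median of all regions, -0.17.

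The region with the smallest p lay in an exon of Mex3b (ENSMUSG00000057706), which encodes an RNA-binding protein with KH domains (chr7:82869538-82869937). It had normalized values of 102 and 79.5 in M-EPCs and 14.2 and 6.62 in OVX-EPCs, or 95, 88, 14 and 7 reads. Both OVX-EPC values were far below both M-EPC values, and the log2 fold change was -3.08 (SE 0.312; limma adjusted p = 1.15e-06). It stayed past the threshold with any 1 library left out. Another 3 regions assigned to Mex3b fell as well. The region at chr7:82873324-82873723 had values of 30.1 and 22.6 in M-EPCs and 2.02 and 5.67 in OVX-EPCs (log2 fold change -2.59, adjusted p = 0.00342). The region at chr7:82866115-82866514, which overlaps the predicted gene Gm36584, had 63.4 and 52.4 against 24.3 and 15.1 (-1.54, adjusted p = 0.00553), and the one at the start of Mex3b (chr7:82866938-82867337) had 37.6 and 31.6 against 8.10 and 12.3 (-1.69, adjusted p = 0.0116). The groups were separate at each of the 4 regions, which span 7609 bp. The 2 other tested regions within 50 kb, 1 on either side, had log2 fold changes of -0.97 and -0.44 and did not pass the test.

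Other genes had 2 differing regions each. Gm38231, a predicted gene on chromosome 10, had 47.3 and 47.9 in M-EPCs against 9.11 and 11.3 in OVX-EPCs at the region whose sequence is shown above (chr10:37128705-37129104; -2.12, SE 0.310, adjusted p = 3.35e-04). Its second region, at chr10:37130855-37131254, had 59.1 and 45.2 against 12.1 and 13.2 (-1.94, adjusted p = 6.24e-04). Nothing overlapped between groups, and the remaining 2 tested regions within 50 kb had log2 fold changes of -1.28 and -1.19 without passing the test. Unc5a encodes a netrin receptor that guides axons. Its region 164 bp from the nearest annotated start site (chr13:55003203-55003830) had values of 38.7 and 29.8 in M-EPCs and 10.1 and 2.84 in OVX-EPCs (-2.42, SE 0.415, adjusted p = 0.00197), and the region at chr13:55004778-55005177 had 31.2 and 22.6 against 11.1 and 5.67 (-1.61, adjusted p = 0.0443). Regions near the start of the neighbouring gene Hk3, a hexokinase of blood cells, had log2 fold changes of -0.64 and -1.26 and did not pass the test. Gm20750, on chromosome 3, carried the strongest signal among the differing regions. Its values were 204 and 180 in M-EPCs and 75.9 and 74.7 in OVX-EPCs in an intron (chr3:52919412-52919811; -1.34, SE 0.211, adjusted p = 8.29e-04), and 107 and 102 against 31.4 and 34.0 in an exon (chr3:52909978-52910377; -1.65, adjusted p = 3.35e-04). Replicates lay close together at both.

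Sipa1l2 encodes a GTPase-activating protein for Rap, and its differing regions lay outside the gene, 130168 and 130912 bp from its nearest start site. At chr8:125362343-125362742 the values were 29.0 and 35.2 in M-EPCs and 5.06 and 5.67 in OVX-EPCs (-2.37, SE 0.370, adjusted p = 7.15e-04). At chr8:125361599-125361998 the M-EPC libraries differed among themselves, 58.0 and 27.1, but both exceeded the OVX-EPC values of 7.09 and 6.62 (-2.38, adjusted p = 6.24e-04). The adjoining region, assigned to the predicted gene Gm16237 with a start site 132625 bp away, fell by 1.44 (log2, adjusted p = 0.0387). A region 46.0 kb away had 43.0 and 47.9 in M-EPCs and 41.5 and 31.2 in OVX-EPCs, and did not differ. Across the autosomes, differing regions within 100 kb of each other formed 54 loci, 46 of them with a single region.

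**Figure D2:**
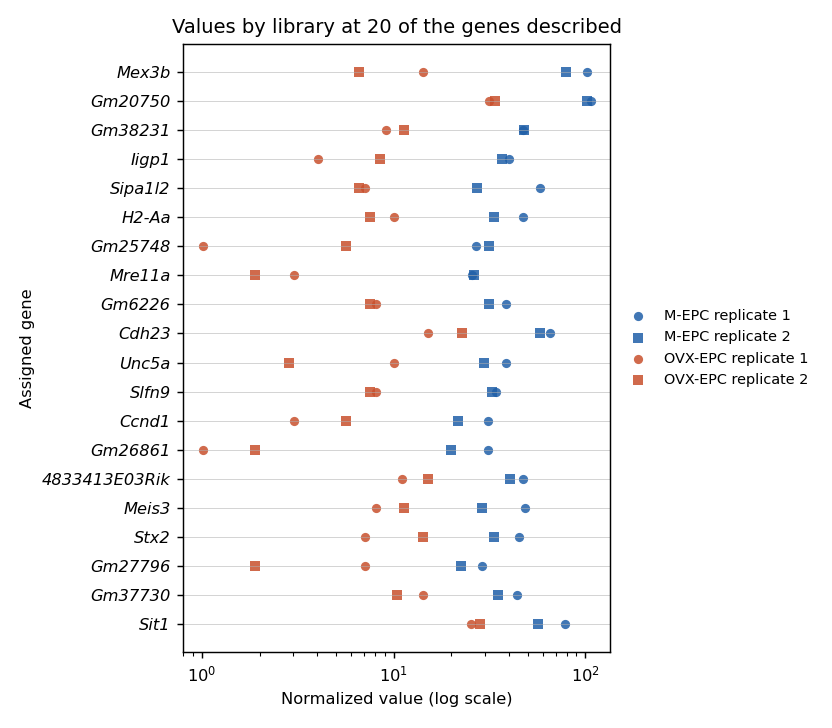
Normalized value (log axis) in each of the 4 libraries at 20 genes with differing regions, 1 region a gene, in order of p. Circles are replicate 1 and squares replicate 2. In every gene shown both M-EPC points (blue) lie above both OVX-EPC points (orange), which was a condition for naming them. Mex3b had 102 and 79.5 against 14.2 and 6.62.

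Iigp1 encodes an interferon-inducible GTPase that acts against intracellular pathogens. Its region at chr18:60396245-60396644 had values of 39.8 and 37.0 in M-EPCs and 4.05 and 8.51 in OVX-EPCs (-2.51, SE 0.368, adjusted p = 3.35e-04). A second, in an intron (chr18:60388248-60388647), had 36 and 21 reads against 3 and 2 (-3.04, adjusted p = 0.00147). Gm6960, next to it, had 26.9 and 15.4 against 3.04 and 4.73 (-2.15, adjusted p = 0.0374). The other 6 tested regions of this locus, taken 50 kb to either side, did not pass the test, and had log2 fold changes from -3.15 to -0.16 with a median of -0.82, beside the autosomal median of -0.17. At the promoter of Iigp1, where the OVX-EPC libraries held 0 and 1.89 against 12.9 and 15.4, the region did not pass the test (adjusted p = 0.209). Slfn9, a member of the Schlafen family, had 34.4 and 32.5 against 8.10 and 7.57 (-1.96, SE 0.342, adjusted p = 0.00236). Slfn genes have near-identical copies, so their reads are uncertain.

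H2-Aa encodes the alpha chain of an MHC class II molecule, which presents peptides to T cells. Its region downstream of the gene, the tandem repeat shown above (chr17:34280650-34281049), had values of 47.3 and 33.4 in M-EPCs and 10.1 and 7.57 in OVX-EPCs (-2.06, SE 0.335, adjusted p = 0.00111). The region of Gm15821 in the same MHC interval had 30.1 and 32.5 against 14.2 and 6.62 (-1.59, adjusted p = 0.0375). The other 12 tested regions of this locus did not pass the test, among them regions of Tap1 and Tap2, which carry peptides into the endoplasmic reticulum, and of H2-Ob, H2-Ab1 and H2-Eb1. Their log2 fold changes ran from -2.06 to -0.12 with a median of -0.85, beside -0.17 over all autosomal regions.

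Genes named H2- were grouped only after these values had been seen. Of their 40 tested regions on chromosome 17, 2 fell, those of H2-Aa and H2-Q5, and 0 rose, beside 0.403% lower over all autosomal regions. At an unadjusted p under 0.05, 16 were lower and 0 higher, beside 11.2% lower and 4.31% higher over all regions, and the median was 0.31 (log2) below the autosomal one. Between replicates of 1 group the same relative median was -0.20 (M-EPC replicate 2 over 1) and -0.24 (OVX-EPC replicate 2 over 1), of a size not far from the difference between the groups. Of all 137 regions tested in the interval between the first and last of these genes, 3 passed the test and were lower, 38 were lower and 3 higher at an unadjusted p under 0.05, and the relative median was -0.18. The 49 H2- regions of the table took 0.216% and 0.190% of autosomal reads in M-EPCs and 0.155% and 0.141% in OVX-EPCs. An exact two-sided permutation test of these shares gave p = 0.333, the smallest that 2 against 2 libraries allow. Class I genes such as H2-Q5 and H2-Q6 are near-identical copies of one another, and reads between them are uncertain. H2-Q5 had 20.4 and 22.6 in M-EPCs against 4.05 and 5.67 in OVX-EPCs (-1.95, adjusted p = 0.0294). H2-K1 and H2-D1, the classical class I genes, did not differ, with log2 fold changes of -0.24 and -0.02.

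**Figure D3:**
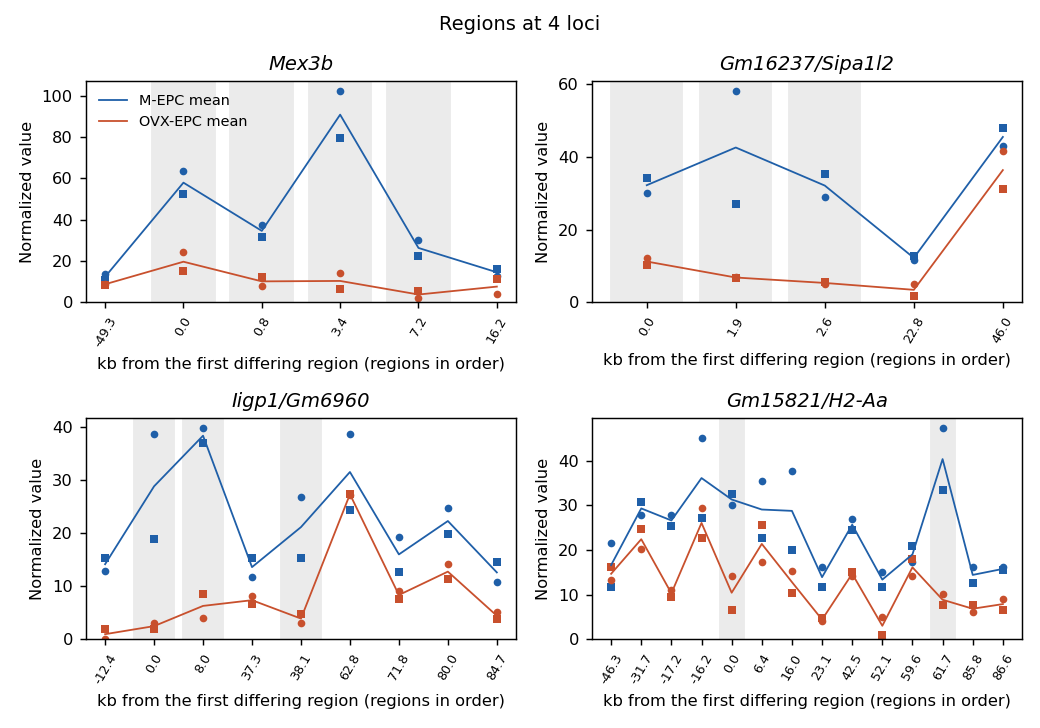
Normalized values of every tested region at 4 loci, in order along the chromosome, with the distance from the first differing region in kb. Lines join the means of M-EPCs (blue) and OVX-EPCs (orange), circles and squares are replicates 1 and 2, and shaded regions passed the test. The M-EPC line is above the OVX-EPC line throughout, and the gap is widest at Mex3b (102 and 79.5 against 14.2 and 6.62).

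The remaining regions with small p values were assigned to genes of many kinds, some of them distant. Ccnd1 encodes cyclin D1, which drives entry into S phase. Its intergenic region, 52063 bp from the start site, had values of 31.2 and 21.7 in M-EPCs and 3.04 and 5.67 in OVX-EPCs (-2.38, SE 0.429, adjusted p = 0.00370). Cdh23 encodes a cadherin of the tip links of hair cells. An exonic region of it 1986 bp from the start site had 65.5 and 57.8 against 15.2 and 22.7 (-1.68, SE 0.282, adjusted p = 0.00151). Mre11a encodes a nuclease of DNA break repair, and a region in its intron that overlaps an exon of Gm47154 had 25.8 and 26.2 against 3.04 and 1.89 (-2.98, adjusted p = 0.00147). M-EPC replicates were almost equal there. Stx2, a syntaxin of membrane fusion, had 45.1 and 33.4 against 7.09 and 14.2 (-1.85, adjusted p = 0.00543). Meis3, a homeobox transcription factor whose start site lay 5956 bp away, had 48.4 and 28.9 against 8.10 and 11.3 (-1.86, adjusted p = 0.00455). Sit1, an adaptor of T cell signalling whose start site lay 12651 bp away, had 78.4 and 56.9 against 25.3 and 28.4 (-1.29, adjusted p = 0.0170). Among predicted genes, Gm26861 had the lowest log2 fold change of the regions described, -3.43, with values of 31.2 and 19.9 in M-EPCs and 1.01 and 1.89 in OVX-EPCs, or 29 and 22 reads against 1 and 2 (adjusted p = 0.00401). Its region lies within the annotated gene Chrm3, a muscarinic receptor. Gm25748 had 26.9 and 31.6 against 1.01 and 5.67 (-3.04, adjusted p = 0.00147), Gm6226 had 38.7 and 31.6 against 8.10 and 7.57 (-2.03, adjusted p = 0.00151), and 4833413E03Rik had 47.3 and 40.7 against 11.1 and 15.1 (-1.68, adjusted p = 0.00419). Gm27796, whose region overlaps an exon of Prune2, had 29.0 and 22.6 against 7.09 and 1.89 (-2.46, adjusted p = 0.00713). Gm37730 had 44.1 and 35.2 against 14.2 and 10.4 (-1.62, adjusted p = 0.00962), Gm23062, in an intron of Hlcs, had 21.5 and 20.8 against 3.04 and 3.78 (-2.33, adjusted p = 0.0181), and Fam162b had 52.7 and 62.3 against 16.2 and 28.4 (-1.38, adjusted p = 0.0216). The groups were separate at each gene of this paragraph, which was a condition for naming them. In 48 of the 67 regions M-EPC replicate 1 was the higher of the M-EPC libraries. Relative to all autosomal regions tested, their median log2 difference of M-EPC replicate 2 over 1 was -0.11.

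A few more differing regions were assigned to genes with well-known roles, picked out here after their values had been seen. Acly encodes ATP-citrate lyase, which supplies acetyl-CoA for lipids and for histone acetylation, and its promoter region (chr11:100527776-100528175) had 31.2 and 24.4 in M-EPCs and 9.11 and 9.46 in OVX-EPCs (-1.47, SE 0.347, adjusted p = 0.0443). Cdyl2, a chromodomain protein related to readers of H3K9 methylation, had 22.6 and 28.0 against 4.05 and 9.46 in its first intron (-1.85, adjusted p = 0.0294). Ube2d1, a ubiquitin-conjugating enzyme, had 17.2 and 28.0 against 6.07 and 2.84 (-2.14, adjusted p = 0.0272). Slc23a2, a vitamin C transporter, had 110 and 84.9 against 44.5 and 45.4 (-1.08, adjusted p = 0.0294). That region overlaps the predicted gene Gm14051 and lies 24188 bp from the Slc23a2 start site. Each gene had M-EPC values above both OVX-EPC values, a separation seen at 31.5% of all regions tested. The smallest change among the regions described was that of Gm23234, with 103 and 83 reads against 37 and 52 (-1.07, adjusted p = 0.0443).

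Counts in the gene lists are to be read beside the 0.403% of all regions that fell, which amounts to less than 1 region in the smaller lists. Zinc finger genes, which include many classic H3K9me3 targets, had 610 tested regions, and 1 fell (0.164%), a region of Zfp709 with 46.2 and 61.4 in M-EPCs and 24.3 and 21.8 in OVX-EPCs (-1.18, adjusted p = 0.0443). The list median was 0.06 below the autosomal median, and 0.12 below with the GC trend removed. Over all 964 regions of these genes the share of autosomal reads was 3.96% and 3.75% in M-EPCs and 3.27% and 3.54% in OVX-EPCs. These shares gave an exact permutation p of 0.333, the smallest possible. Axon guidance and ephrin genes had 33 regions, of which the 2 of Unc5a fell. Protocadherin and cadherin genes had 91, with 1 lower (Cdh23), and a median 0.26 above the autosomal one. Developmental transcription factors had 76, with 1 lower (Meis3), and a median 0.02 above. Predicted genes had 5835 regions, of which 23 fell (0.394%), close to the share of all regions. No list held a region that rose.

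Olfactory and vomeronasal receptor genes, kept silent in most cells, lay on the other side of the median. Their 226 tested regions had a median 0.56 (log2) above the autosomal median, and 40 were higher and 3 lower at an unadjusted p under 0.05, beside 4.31% higher and 11.2% lower over all regions. Of these, 0 passed the adjusted threshold in the higher direction. The single region that fell, 1 near Olfr212, had 48.4 and 41.6 in M-EPCs and 10.1 and 24.6 in OVX-EPCs (-1.44, adjusted p = 0.0404). The relative median between replicates was 0.19 in M-EPCs and 0.08 in OVX-EPCs, and with 1 M-EPC library left out the difference between groups was 0.49 or 0.62. Over all 1080 regions of these genes, whatever their values, the share of autosomal reads was 1.32% and 1.50% in M-EPCs and 1.85% and 1.94% in OVX-EPCs. The OVX-EPC mean was 1.34 times the M-EPC mean (exact permutation p = 0.333, the smallest possible). Single regions had a median of 10.8 (mean value over the libraries).

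By their medians, proinflammatory genes and leukocyte markers lay on the low side, as did the other marker lists. Of 30 tested regions of proinflammatory genes 0 passed the test, 8 were lower and 0 higher at an unadjusted p under 0.05 (11.2% and 4.31% over all regions), and the median was 0.37 below the autosomal median, against -0.18 between the M-EPC replicates and 0.01 between those of OVX-EPCs. Their 64 regions took 0.169% and 0.147% of autosomal reads in M-EPCs and 0.112% and 0.115% in OVX-EPCs (exact permutation p = 0.333, the smallest possible). The smallest p belonged to the promoter of Cd74, the invariant chain that accompanies MHC class II molecules, with 26 and 21 reads in M-EPCs and 3 and 11 in OVX-EPCs (-1.83, SE 0.444, adjusted p = 0.0587). Leukocyte markers had 6 tested regions, 3 of them lower at an unadjusted p under 0.05 and 0 higher, with a median 0.44 below the autosomal one. Their 11 regions took 0.0309% and 0.0274% of reads in M-EPCs and 0.0219% and 0.0223% in OVX-EPCs (exact permutation p = 0.333). Endothelial progenitor markers had 11 tested regions, 2 lower and 2 higher at that p, with a relative median of -0.24. Between the OVX-EPC replicates it was -0.43. Their shares overlapped between groups (0.0688% and 0.0731% against 0.0720% and 0.0597%). Fibroblast or stromal markers had 1 tested region, at -0.33 relative to the autosomal median, and their 12 regions took 0.0111% and 0.0109% against 0.0125% and 0.0157%. The mark does not measure expression, so these lists cannot check the labelled cell type, and whether the cell mixture differed between the groups was not tested.

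Of 39 regions of angiogenic genes 0 passed the test. At an unadjusted p under 0.05, 2 were lower and 0 higher, beside 11.2% lower and 4.31% higher over all regions. The list median was 0.02 above the autosomal median. The smallest p was that of Mmp9, a matrix-degrading gelatinase, with 70.9 and 57.8 in M-EPCs and 30.4 and 42.6 in OVX-EPCs (-0.82, adjusted p = 0.159). Of autosomal reads, the 107 regions of the list held 0.212% in either M-EPC library, against 0.183% and 0.177% in OVX-EPCs (exact permutation p = 0.333). Growth factor signalling genes had 58 regions and 0 calls, with Smad6, an inhibitor of BMP signalling, at -1.35 (adjusted p = 0.154). Imprinted genes had 35 regions and 0 calls, with Impact at -0.69 (adjusted p = 0.212). In the list of enzymes and readers of H3K9 methylation, which does not hold Cdyl2, 0 of 33 regions passed. Its 73 regions took 0.185% and 0.176% of reads in M-EPCs and 0.147% and 0.146% in OVX-EPCs (exact permutation p = 0.333). The median was 0.19 below the autosomal one, but 0.04 below once the trend with GC content was removed, and the smallest p was that of the histone deacetylase Hdac2, 29.0 and 37.0 against 16.2 and 14.2 (-1.06, adjusted p = 0.142).

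**Figure D4:**
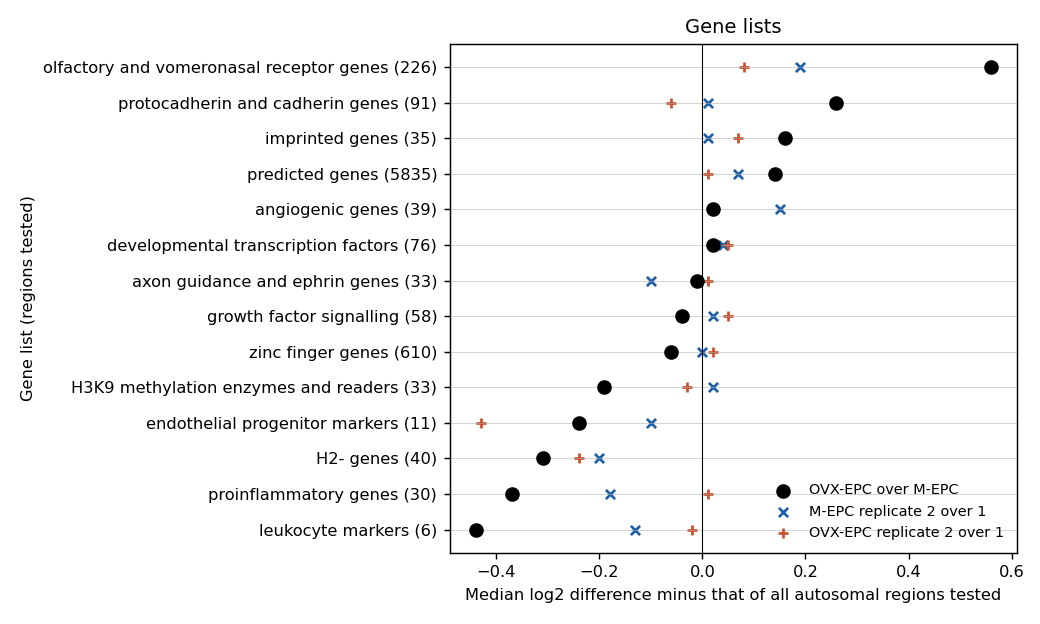
Median log2 difference of each gene list minus that of all autosomal regions tested, with the number of tested regions in brackets. Black points compare OVX-EPCs with M-EPCs, and crosses compare the replicates of each group in the same way. Olfactory and vomeronasal receptor genes lie at 0.56 and leukocyte markers at -0.44, with their replicate crosses nearer to 0.

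No autosomal region rose past the threshold. The 5 with the smallest p in that direction were those of Cnih3, C130026I21Rik, Zfp993, Gm26090 and Mir1251. Cnih3 encodes an auxiliary subunit of AMPA receptors, and its region (chr1:181336370-181336769) had 12.9 and 8.13 in M-EPCs and 29.4 and 28.4 in OVX-EPCs (1.41, SE 0.344, adjusted p = 0.0609). Under 9 of 13 other settings this region passed the threshold, as with edgeR (adjusted p = 0.0355) and with the GC trend removed (0.0428), and it passed in no fit that left out a library. C130026I21Rik passed under 2 of the settings, Zfp993 under 1, Gm26090 under 3 and Mir1251 under 0. The values of the groups did not overlap at Cnih3, and the other 4 had log2 fold changes of 1.05 to 1.45 and adjusted p values of 0.0799 to 0.0894. On chromosome X the same fit called 8 of 303 regions higher and 0 lower in OVX-EPCs, with a median of 0.90. Male and female cells differ in their number of X chromosomes, so copy number and a change of the mark cannot be told apart there.

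Promoters, within 3 kb of a start site by the authors' annotation, held 19 of the 67 differing regions, or 0.334% of the 5693 promoter regions tested, against 48 of 10923 others (0.439%). The share was 0.236% within 1 kb of a start, 0.859% at 1 to 2 kb, and 0.665% at 2 to 3 kb. It was 1.35% in the 223 regions downstream of genes, 0.583% in later introns, 0.425% in first introns and 0.354% in distal intergenic sequence. The median of promoters was -0.18 (log2) relative to that of other regions, beside a spread of 0.112 for the same difference between replicates. For M-EPC replicate 2 over 1, the relative median was -0.10 in promoters and 0.06 in other regions, a gap not far from that between groups. For OVX-EPC replicate 2 over 1 these were -0.05 and 0.02. The difference between groups was -0.08 without M-EPC replicate 1 and -0.07 with the GC trend removed, both smaller than the spread of 0.112. The promoter share of autosomal reads was 31.0% ± 2.38 (SD, n = 2) in M-EPCs and 27.7% ± 0.146 (SD, n = 2) in OVX-EPCs. The difference of -3.30 percentage points had an exact permutation p of 0.333, the smallest possible, and without M-EPC replicate 1 it was -1.62. Among regions with a value of at least 30 in at least 2 libraries the shares were 43.3% and 41.8% in M-EPCs and 44.1% and 41.9% in OVX-EPCs, and no longer separated the groups.

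CG-rich regions were seldom among those that differed. Of 2555 tested regions with at least 30 CG dinucleotides 2 fell (0.0783%), although their median was 0.15 below the autosomal one, while 21 of 3339 regions with 1 or 2 CG fell (0.629%). The relative median of CG-rich regions was -0.16 between the M-EPC replicates, as large as between the groups. By GC content, 56 of the 67 differing regions lay between 40% and 55%, a share of 83.6%, as did 64.9% of all regions tested. Differing regions carried a median of 3 CG dinucleotides, against 6 in all regions tested. The share that differed rose with signal, from 0 of 2835 regions with a mean value under 10 and 0.230% at 10 to 15, to 0.974% at 30 to 50 and 1.08% of the 93 regions at 100 or more. The strongest 93 regions had a median 0.36 above the autosomal one, and 8 were higher and 6 lower at an unadjusted p under 0.05. The differing regions had a median mean value of 20.6, and the weakest was at 12.2.

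**Figure D5:**
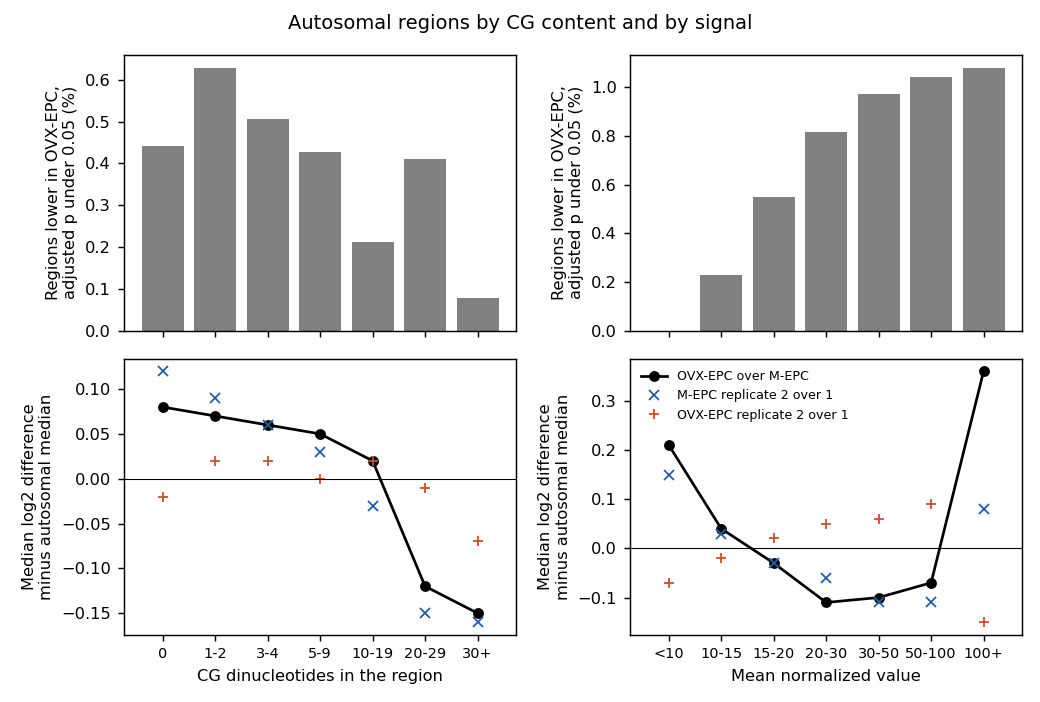
Autosomal regions tested, by number of CG dinucleotides (left) and by mean normalized value (right). Bars give the percentage lower in OVX-EPCs at an adjusted p under 0.05, and the panels beneath give the median log2 difference minus the autosomal median for the groups (black) and between replicates (crosses). The percentage is 0.0783 at 30 or more CG and rises with signal to 1.08, and the M-EPC replicate crosses follow the black points over CG content.

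Sequence letters of the 16330 tested regions 400 bp long were searched on both strands for 9 binding motifs, chosen after the genes had been seen, so the matches are a description. The motif of the interferon-stimulated response element, GAAA followed by any 2 bases and GAAA, is bound by IRF factors and by the STAT complex of the interferon response. It was present in 574 regions (3.52%) and in 14 of 66 differing regions (21.2%). Within 40% to 55% GC the shares were 4.11% of all and 23.2% of differing regions. Not all of these matches look alike. In 4 of the 14 regions the letters matched 3 or more times, as happens in purine-rich simple repeats, against 20 of all 574. A match lay outside soft-masked repeats in 5 of the 14, against 286 of the 574. The differing regions thus held multiple matches more often, and unmasked matches less often, than all regions with the motif. Windows around single matches are shown for regions of both kinds, with the motif in capitals, at most 15 bases to each side, on the strand that reads GAAA. Genes shown here beyond those named above were chosen for their match.
Mre11a, chr9:14808331-14808370, minus strand: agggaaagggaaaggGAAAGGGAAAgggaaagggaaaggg
Meis3, chr7:16190195-16190234, minus strand: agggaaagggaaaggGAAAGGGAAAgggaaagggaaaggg
Clic5, chr17:44187552-44187591, plus strand: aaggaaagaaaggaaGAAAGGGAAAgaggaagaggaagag
Agrn, chr4:156164604-156164643, plus strand: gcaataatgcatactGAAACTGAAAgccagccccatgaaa
Gcnt1, chr19:17228890-17228929, plus strand: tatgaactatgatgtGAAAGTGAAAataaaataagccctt
Slc23a2, chr2:132169201-132169240, plus strand: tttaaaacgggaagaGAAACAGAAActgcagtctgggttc
Sit1, chr4:43470467-43470506, plus strand: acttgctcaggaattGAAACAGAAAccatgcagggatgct
Nr1i3, chr1:171211699-171211738, minus strand: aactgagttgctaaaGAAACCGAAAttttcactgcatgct
4930552P12Rik, chr19:55643555-55643594, plus strand: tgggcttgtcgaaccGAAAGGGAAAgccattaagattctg
The windows of Mre11a and Meis3 are runs of the unit GGGAAA, that of Clic5 is a purine-rich stretch, and the others hold an isolated match. Of these isolated matches, those of Agrn, Gcnt1 and Slc23a2 lay within soft-masked repeats, and those of Sit1, Nr1i3 and 4930552P12Rik outside them. Values at the isolated matches were moderate. Agrn had 26.9 and 22.6 in M-EPCs and 7.09 and 7.57 in OVX-EPCs (-1.62, adjusted p = 0.0387), Gcnt1 had 45.1 and 33.4 against 14.2 and 13.2 (-1.44, adjusted p = 0.0267), and Nr1i3 had 24.7 and 22.6 against 7.09 and 7.57 (-1.57, adjusted p = 0.0474). Clic5 had 22.6 and 20.8 against 4.05 and 4.73 (-2.07, adjusted p = 0.0216). Over all 574 regions with the motif, 2.44% fell against 0.403% of all tested, 19.2% were lower at an unadjusted p under 0.05 against 11.2%, and the median was 0.11 below the autosomal one. That relative median was 0.01 between the M-EPC replicates and -0.02 between the OVX-EPC replicates. It was -0.12 without either M-EPC library and -0.14 with the GC trend removed.

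The other motifs were less unevenly spread. An ETS and IRF composite, GGAA followed by any 2 bases and GAAA, was in 3.65% of regions and in 4 of 66 differing ones (6.06%), with a relative median of -0.06. The PU.1 motif GAGGAAGT was in 7.09% of regions and 4.55% of differing ones (relative median -0.07), and the STAT motif TTCNNNGAA in 8.88% and 3.03%. AP-1 (TGANTCA) was in 11.5% and 10.6%, RUNX (TGTGGTT) in 8.40% and 6.06%, C/EBP (TTGCNCAA) in 4.62% and 7.58%, the motif AGATAA, read by GATA factors, in 11.7% and 10.6%, and the E-box CANNTG in 83.3% and 92.4%. The STAT and interferon motifs share letters, the composite overlaps the interferon motif in 1 GAAA, and the absence of these letters says nothing about a factor.

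Differing regions were spread over 17 of the 19 autosomes. Chromosome 7 held 10 (0.914% of its 1094 tested regions), 4 of them at Mex3b, and chromosome 19 held 4 of 420 (0.952%). Chromosomes 1, 17 and 8 held 8, 7 and 6, and chromosomes 14 and 15 held 0 of 478 and 0 of 709. Chromosome medians lay within 0.11 (log2) of the autosomal median, from 0.11 below it on chromosome 19 to 0.10 above it on chromosome 3.

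The F-EPC libraries, of intact females, were deposited in another table with M-EPCs, scaled separately, and cover only part of the genome. Both comparisons share the M-EPC libraries, so the values are given side by side and not tested. They are shown for only some of the 17 regions covered there, out of the 64 differing regions open to naming. At the second region of Unc5a the F-EPC values were 14.4 and 7.38 where the same table gave M-EPCs 36.3 and 25.3. At the second region of Gm38231 they were 7.18 and 10.1 against 68.8 and 50.7. At Cdh23 they were 28.7 and 26.7 against 76.3 and 64.9. At Acly they were 13.6 and 24.9 against 36.3 and 27.4. At Slfn9 they were 32.7 and 36.0, close to the 36.5 of M-EPC replicate 2 in that table.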

How the data were processed

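H3K9me3 was measured by CUT&Tag in 2 M-EPC and 2 OVX-EPC libraries, grouped by their GEO titles. Per the methods, 25-base read pairs were aligned to mm10 with Bowtie2, duplicates and reads of low mapping quality were removed, peaks were called with MACS and regions annotated with HOMER and ChIPseeker. The submitters' processing notes name BWA and MACS2 instead. The labels and protocol give different antibody numbers, and the paired reads are short, which limits placement in repeats. The authors deposited a normalized signal per region and library, in tables made separately for each pair of groups, and their own fold changes, p-values and adjusted p-values, which were not used. Deposited signals proved to be read numbers scaled by a single factor in each library, and 100% of them came out as whole reads within a relative tolerance of 1e-06. Of regions, 98.3% were 400 bp long, and 0 per-sample columns were left unmapped.

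limma 3.58.1 with a mean-variance trend was fitted in R 4.3.3 to log2(value + 1) of all 16931 regions of the table with a value of at least 10 in at least 2 libraries, sex chromosomes included, without covariates. Fold changes are on that scale, which understates changes of low regions. A region differed at a Benjamini-Hochberg adjusted p under 0.05. edgeR 4.0.16 and DESeq2 1.42.0 were run on the recovered whole reads as alternatives. The scripts were tested on simulated data. Regions of 400 bp and their GC, CG and soft-masked content were read from GRCm38, and transcripts from GENCODE. Depth was 489207 to 566265 autosomal region reads a library.

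The region set, gene lists, markers and motifs were chosen with earlier results of these data known. The naming rule picked the 25 genes whose differing, non-overlapping regions had the smallest p, and genes with at least 2 differing regions. It also picked the 5 regions with the smallest p among those higher, and each list's differing regions or its region with the smallest p. Not every region so picked is given in the text. Of the 67 differing regions, 3 were kept out of the naming and are only counted. The labels name no pairing by replicate number, so the fit without a block is the one given. The exact permutation test is two-sided over libraries.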

Additional observations from a re-analysis of the deposited data

How the results depend on the processing

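All 45 differing regions named by the rule kept their direction under every alternative that tested them, 24 of them at the stricter filter named below. Their groups did not overlap, so with 1 library left out the direction could not change. Of these 45, 14 no longer differed with the GC trend removed, 14 with a pseudocount of 0.1, 17 with TMM factors from the regions tested, 16 with the replicate block and the GC trend removed, and 38 with DESeq2. Among the weaker calls, the second Unc5a region and Acly differed under 6 of 13 alternatives and H2-Q5 under 7. The count of differing regions was 68 with TMM factors, 58 scaled to total region reads, 90 with a pseudocount of 5 and 76 on autosomal regions only. It was 117 without a filter on low values, 120 of 1897 regions with a value of at least 30 in at least 2 libraries, 38 with a pseudocount of 0.1, 122 with edgeR, 10 with DESeq2, 43 with the GC trend removed and 39 with TMM factors from the regions tested, a scaling chosen after seeing the data. Fewer regions were tested under the stricter filter. The cause of the other differences was not tested. DESeq2 gave 349 lower and 107 higher at an unadjusted p under 0.05. With 1 library left out the count ran from 10 to 195. In those fits the group left with 1 library was assumed to vary like the other, and of the 45 named regions 6 to 38 still differed. The promoter minus other median was -0.30 without the filter, -0.04 at the stricter filter, and -0.24 to -0.08 with 1 library left out. The difference in promoter share was 0.453 percentage points at the stricter filter, the other direction, and ran from -4.98 to -1.62 with 1 library left out.

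The labels do not say whether same-numbered libraries were paired. Their deviations had a correlation of -0.0186 over regions, which cannot exclude a pairing where single regions hold few reads. With the replicate number as a block 88 regions differed, 63 of them among the 67, and 36 with the block and the GC trend removed. Of 2835 regions with a mean value under 10, 0 differed. That mean is taken over the same values that were tested, and whether depth set the calls was not tested.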
